A study of Mus musculus with 7 samples.

Results

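The thymic epithelial cells (TECs) described here carried *Prss16* and *Ccl21a* transcripts together, 2 genes that usually mark separate compartments of the thymus. They were selected on their own measured values, as cells with *Ptprc* at 0, *Prss16* above 1.5, *Ccl21a* above 3, *Krt5* above 0, and *Ackr4* and *Psmb11* at 0. The scale is the deposited one, the natural log of 1 plus a gene's UMIs (unique molecular identifiers, which mark single captured RNA molecules) per 10000 in that cell. Of 8453 cells, 8220 had no *Ptprc* UMI, and 89 of these met every condition (1.08%, exact 95% binomial interval 0.870 to 1.33). A pair of populations served for comparison and shared no cell with them. The first held 591 cortical cells, with at least 2 of the 3 genes *Psmb11*, *Ackr4* and *Prss16* above 0 and *Ccl21a* at most 4. The second held 2357 *Ccl21a*-high cells, with *Ccl21a* above 4 and *Prss16* at 0.

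Cortical TECs (cTECs) support the early steps of T cell development and present the self peptides on which thymocytes are positively selected. They make *Prss16*, a serine protease tied to class II peptides, *Psmb11*, a catalytic subunit of the thymoproteasome, and *Ackr4*, a scavenging chemokine receptor. A large group of medullary TECs (mTECs) makes *Ccl21a*, a chemokine that draws CCR7-bearing thymocytes into the medulla, and the basal keratin *Krt5*. Both branches arise from common TEC progenitors, and *Ptprc* encodes CD45, the surface protein of blood cells. In the gene annotation of the mm10 genome (GRCm38), *Prss16* lies on chromosome 13 at 22002173 to 22009742 and *Ccl21a* on chromosome 4 at 42772860 to 42773993, both on the minus strand.

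Thymic cells sorted as EpCAM+ CD45- were profiled by droplet-based scRNA-seq in 7 libraries, each a pool of 3 thymi. In the lineage tracing library, Aire-CreERT2-R26-CAG-Stopfl-zsGreen mice on a C57BL/6 background, 6 weeks of age, had been given tamoxifen over 10 days (2 mg on alternate days), so that cells with an active *Aire* promoter, which drives the Cre, were labelled with ZsGreen. The 2 isotype control libraries came from mice given 3 treatments of 100 µg of isotype antibody within a week and taken at week 2 (4 weeks of age) or week 10 (12 weeks of age). The 4 anti-RANKL libraries came from mice that the paper calls wild-type, dosed alike with an antibody against RANKL, the cytokine that mTECs need to mature. These mice were taken at weeks 2, 4, 6 and 10 (4, 6, 8 and 12 weeks of age). Each week of a treatment is 1 library, so treatment and week cannot be separated from the pool of animals. Median depth ran from 4299.5 UMIs per cell in the week 6 anti-RANKL library to 16809 in the week 2 isotype control, and the week 4 and week 6 anti-RANKL libraries were the shallowest. Libraries shared 50 cell barcodes in all, at most 7 between any pair.

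Both genes ranged widely above their limits in the double-expressing cells. Cortical cells reached a higher *Prss16* value (5.12), and *Ccl21a*-high cells had a higher *Ccl21a* median (5.69). *Prss16* ran from 1.504 to 3.74 with a median of 1.84, which corresponded to 1 to 32 UMIs per cell with a median of 3. *Ccl21a* ran from 3.01 to 6.46 with a median of 5.40, or 4 to 1984 UMIs with a median of 108, and 74 of the 89 cells lay above 4. *Krt5* ran from 1.02 to 4.53 with a median of 2.66. These values chose the cells and are given as a description. The limit on *Prss16* ran through a continuous range, with 26 cells within 0.1 above it and 30 otherwise fitting cells within 0.1 below it (highest 1.49991). The limit on *Ccl21a* touched few cells, with 2 within 0.1 above it and 1 within 0.1 below it.

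**Figure D1:**
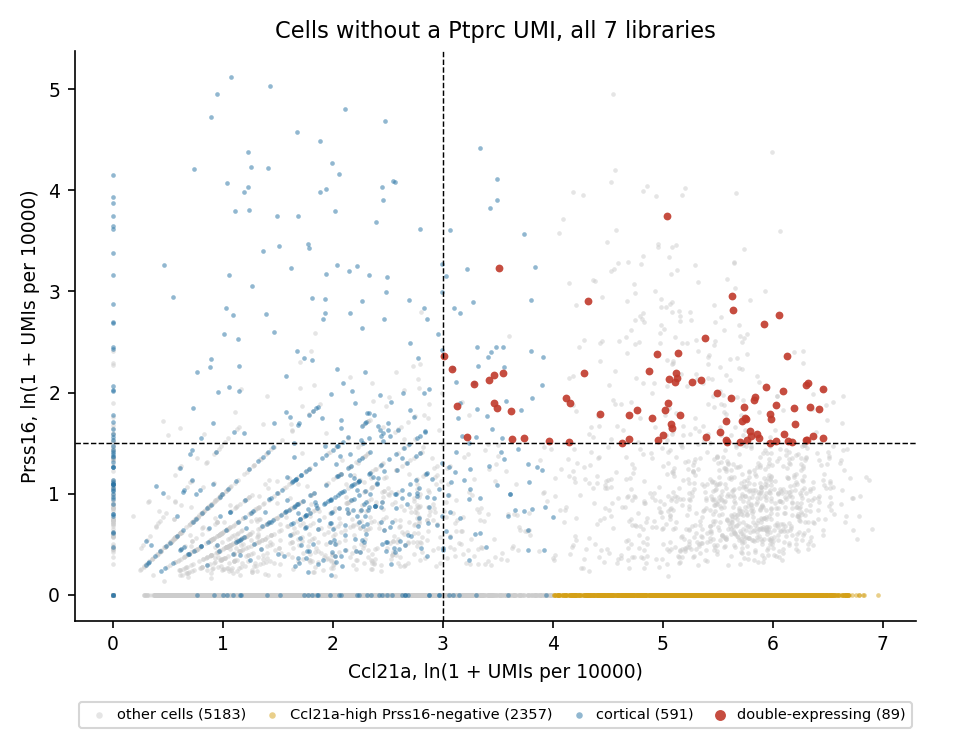
Each point is a cell without a *Ptprc* UMI from any of the 7 libraries; the x axis is *Ccl21a* and the y axis *Prss16*, both as the natural log of 1 plus UMIs per 10000, with dashed lines at 3 and 1.5. The 89 double-expressing cells (red) lie in the upper right, amid other cells (grey) that failed on *Krt5*, *Ackr4* or *Psmb11*, apart from most of the 591 cortical cells (blue) and above the 2357 *Ccl21a*-high cells (yellow, *Prss16* at 0).

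Depth entered the selection in 2 ways. A single *Prss16* UMI passed the limit in a shallow cell, and this held for 21 of the 89 cells, all in the week 4 and week 6 anti-RANKL libraries, while 22 cells had 2 UMIs and 46 had 3 or more. The requirement that *Ackr4* and *Psmb11* be at 0 is also met more easily in a shallow cell. Of 312 cells that met the *Prss16*, *Ccl21a* and *Krt5* limits, 223 carried *Psmb11* or *Ackr4* (160 *Psmb11* alone, 29 *Ackr4* alone, 34 both), and their median depth was 7594 UMIs against 5005 in the 89 cells kept. The lack of these transcripts in the 89 cells is therefore a condition of the selection at this depth, and the 223 cells that carried them were set aside by it.

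Double-expressing cells were most frequent in the week 4 and week 6 anti-RANKL libraries. They made up 0.303% of cells without *Ptprc* (4 of 1318) in the lineage tracing library. In the isotype controls they made up 0.0886% at week 2 (1 of 1129) and 0.642% at week 10 (8 of 1247), a mean of 0.365% ± 0.391 (SD, n = 2). After anti-RANKL the share was 1.01% at week 2 (12 of 1184), 2.07% at week 4 (30 of 1451), 4.03% at week 6 (29 of 719, interval 2.72 to 5.74) and 0.427% at week 10 (5 of 1172). The week 2, week 4 and week 6 anti-RANKL libraries lay above both controls, and the week 10 anti-RANKL library lay between them. With 4 libraries against 2, no exact permutation test can reach the 0.05 threshold, so no test of treatment was made.

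Because the libraries with the highest shares were the shallowest, the conditions were also applied to cells thinned at random to 2000 UMIs. This left out 177 cells and gave 302 double-expressing cells among 8196 (3.68%), 54 of them among the 79 original ones with enough depth. The thinned shares were 3.94% with lineage tracing, 1.13% and 1.74% in the isotype controls at weeks 2 and 10, and 5.38%, 5.49%, 8.57% and 1.43% after anti-RANKL at weeks 2, 4, 6 and 10. The week 6 library was again highest and both controls low, but the lineage tracing library now lay well above both controls. Only 1 of the 54 thinned cells of that library was among its 4 original ones. At 2000 UMIs a single *Prss16* UMI passes the limit, so the thinned conditions chose largely other cells, and the thinned shares describe those cells.

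The number of *Ccl21a*-high cells differed between the libraries as well. Counted against *Ccl21a*-high cells, lineage tracing gave 0.643 double-expressing cells per 100, the controls 1.03 and 5.84 at weeks 2 and 10, and anti-RANKL 3.13, 4.25, 12.3 and 2.84 at weeks 2, 4, 6 and 10. Relative to cells of the *Ccl21a* branch, the week 10 control thus exceeded the anti-RANKL libraries of weeks 2, 4 and 10. Per 100 cortical cells, the numbers were 5.97, 1.23, 12.5, 10.3, 25.4, 37.2 and 7.46 in the same order of libraries. Only the week 6 library was highest on every one of these scales.

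**Figure D2:**
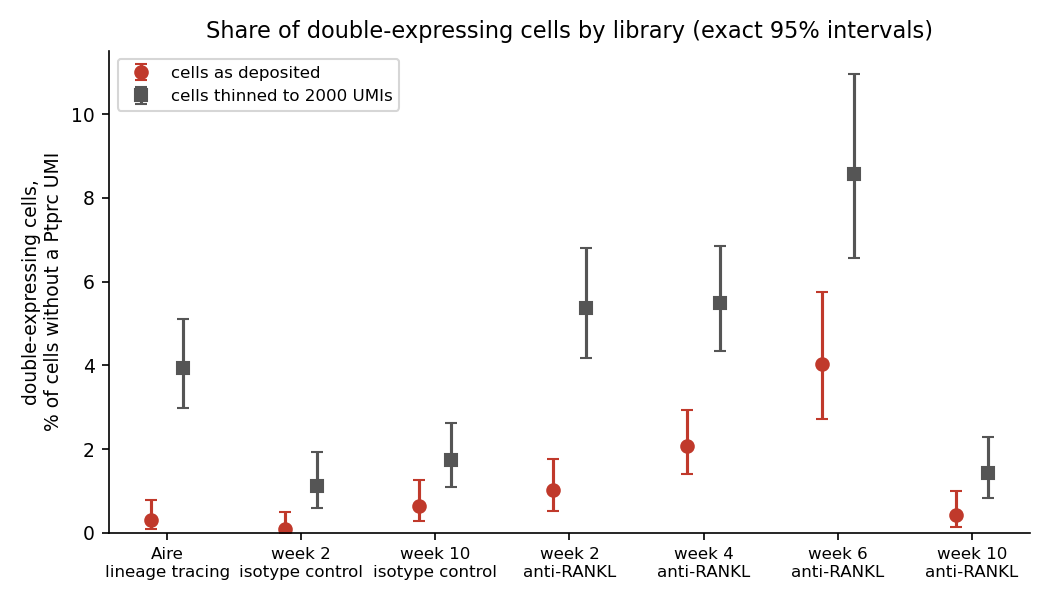
The y axis gives double-expressing cells as a percent of cells without a *Ptprc* UMI in each of the 7 libraries (x axis), with exact 95% intervals for counting error only, for cells as deposited (red circles) and thinned to 2000 UMIs (grey squares). The week 6 anti-RANKL library is highest in both (4.03% and 8.57%), and the lineage tracing library moves from 0.303% to 3.94%.

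Cells with a *Ptprc* UMI, which blood cells would carry, gave a reference level for these shares. Whether all of them lack *Prss16* was not tested. At 2000 UMIs 37.3% of them carried *Tbata*, so this reference is not free of TEC transcripts and sets no background level. Of 233 cells with a *Ptprc* UMI (median depth 10161 UMIs), 2 met all other conditions (0.858%, interval 0.104 to 3.07). The shares of the lineage tracing library, both controls and the week 10 anti-RANKL library lay below that value and are not read as above this reference. Those of weeks 2, 4 and 6 after anti-RANKL lay above it, but as deposited every one of their intervals overlapped the interval of the reference. Thinned to 2000 UMIs, 4 of 228 such cells passed (1.75%, 0.480 to 4.43), and both controls and the week 10 anti-RANKL library were again below it. The lineage tracing library (3.94%) was then above it, as were weeks 2, 4 and 6 after anti-RANKL, and the week 6 interval (6.56 to 10.96) no longer overlapped that of the pooled reference. In the week 6 library itself, 2 of 11 thinned *Ptprc*-bearing cells passed (18.2%, 2.28 to 51.8), so its share was not distinguishable from the reference within that library. At 2000 UMIs per cell, *Prss16* was detected in 11.8% of *Ptprc*-bearing cells (27 of 228, interval 7.95 to 16.8), in 7.80% of *Aire*-positive cells with *Ccl21a* at most 3 (interval 6.77 to 8.92), in 13.1% of all cells with *Ccl21a* above 4 (interval 12.0 to 14.3), and in 46.3% of the cortical class. Detection of *Prss16* in cells with *Ccl21a* above 4 was not distinguishable from that in *Ptprc*-bearing cells, whereas its interval lay above that of the *Aire*-positive cells.

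Whether droplets held a cortical and a *Ccl21a*-high cell together was not tested. Depth cannot decide it, because the selection itself favours shallow cells (above), and the marker lists here cover other cell types. The median depth of double-expressing cells was below that of both comparison classes in 5 of the 7 libraries and above both with lineage tracing (4 cells) and at week 10 of anti-RANKL (5 cells). A doublet caller marked 1 of the 89 cells, but it marked only 0.367% of all cells and is taken not to have worked. Markers of other cell types were present at levels that differed between the lists. The summed level of the thymocyte list (15 of 17 genes present) was 0 to 1.19 UMIs per 10000 per library in double-expressing cells, against 0.474 to 1.84 in cortical and 0.270 to 1.15 in *Ccl21a*-high cells, and *Cd3d*, *Cd3e*, *Cd3g*, *Cd4*, *Rag1* and *Rag2* were at 0. *Lck*, a T cell kinase, was not at 0: at weeks 2, 4 and 6 after anti-RANKL it was at 0.187, 0.062 and 0.853 in double-expressing cells, against 0.121, 0.102 and 0.121 in *Ccl21a*-high cells, and *Cd8a*, *Cd8b1*, *Ptcra*, *Tcf7*, *Lef1* and *Coro1a* were each found in at least 1 library. The myeloid and B cell list (9 genes) reached 0.223, with *Csf1r* and *Cd79a* at 0, but *C1qa* at weeks 4 and 6 of anti-RANKL (0.0507 and 0.128) and *Cd68* at week 4 (0.124) lay above both other classes there, and the tuft list (6 genes) reached 0.827. The erythroid list (4 genes) reached 0.0904. The fibroblast and endothelial list (10 genes) ran from 0 to 5.95, against 2.05 to 5.33 in *Ccl21a*-high and 4.88 to 15.9 in cortical cells, with *Col1a1*, *Pdgfra* and *Pecam1* at 0. Most of it was *Dcn*, a stromal proteoglycan, at 5.70 in the week 10 control and 1.25, 4.04 and 5.42 at weeks 2, 4 and 6 after anti-RANKL. *Pdgfrb* at week 2 (0.315) and *Col3a1* at week 6 (0.144) lay above both other classes in those libraries. The part of these transcripts in the results was not tested. The median share of mitochondrial UMIs was 1.85% to 3.09% in the 3 libraries used for tests and was higher than in both other classes in each of them (1.64% to 2.32%); its part in the results was not tested.

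The cortical class was itself mixed. Its tuft list summed to a median of 1.75 across libraries against 0.358 in double-expressing cells, its myeloid and B cell list to 1.53 against 0.118, and its fibroblast and endothelial list to 7.59 against 1.56. An *Aire* UMI was found in 171 of the 591 cortical cells, in 16 of the 89 double-expressing cells and in 235 of the 2357 *Ccl21a*-high cells. Genes of those cell types that were lower in double-expressing than in cortical cells are set beside these values below, and their part in the differences was not tested.

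Genes were compared in the libraries that held at least 10 cells of each class, which left the anti-RANKL libraries of weeks 2, 4 and 6 with 12, 30 and 29 double-expressing cells (71 of the 89). The level of a gene is its mean UMIs per 10000 over the cells of a class in a library, and differences are log2 of the level plus a pseudocount of 0.1, tested with limma with the library as a block. The 6 selection genes and copies of *Ccl21a* were left out. Genes whose levels go with *Prss16* or *Ccl21a* from cell to cell differ in part because of how the classes were drawn, and the tests describe the classes as drawn. Against *Ccl21a*-high cells, 45 of 5768 genes were higher (0.78%) and 49 lower (0.85%) at an adjusted p under 0.05 over all genes. Against cortical cells, 4 of 5901 were higher (0.0678%) and 6 lower (0.102%), and a further 23 genes fell between 0.05 and 0.06. No gene was called by limma against *Ccl21a*-high cells (0) without the library block (unadjusted 253 higher, 188 lower) or without the filter on low genes (348 and 1745). Without the week 2 library only 4 of the 45 and 1 of the 49 stayed called there, with *Tbata*, *Ctsl* and *Igfbp7* among the 4. Most rises and falls against *Ccl21a*-high cells given below therefore did not pass without that library. Without week 6 the calls against cortical cells numbered 97 and 82. For scale, the comparison classes differed from each other in 1990 of 5822 genes (34.2%) in the same libraries.

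Against *Ccl21a*-high cells, genes of the cortical program were higher. Of 13 genes listed, 9 were tested, 5 rose (*Ctsl*, *Tbata*, *Krt18*, *Ccl25* and *Cxcl12*) and none fell, and their median log2 difference was 0.89 against 0.01 over all genes tested. Without the week 2 library *Krt18*, *Ccl25* and *Cxcl12* did not pass (limma adjusted p = 0.521, 0.633 and 0.497), and *Cxcl12* did not pass without week 6 either (limma adjusted p = 0.249), while *Tbata* and *Ctsl* passed with any 1 of the 3 libraries left out. Over all alternatives the adjusted p ran from 1.31e-06 to 0.573 for *Krt18*, from 5.36e-15 to 0.633 for *Ccl25* and from 0.00869 to 0.566 for *Cxcl12*. Against cortical cells, 10 were tested and none passed in either direction, with a median of -0.03 against -0.05 over all genes.

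*Tbata*, a thymus and testis gene made by cTECs (chromosome 10, 61171954 to 61188841), rose most among them. In double-expressing cells its level was 26.7, 26.2 and 7.73 UMIs per 10000 at weeks 2, 4 and 6, in *Ccl21a*-high cells 3.63, 6.68 and 2.94, and in cortical cells 16.1, 20.4 and 12.9. Double-expressing cells lay above *Ccl21a*-high cells in every library, and above cortical cells at weeks 2 and 4 but not at week 6. The log2 difference was 2.06 ± 0.17 (SE, limma adjusted p = 2.96e-08) against *Ccl21a*-high and 0.12 ± 0.22 (limma adjusted p = 0.894) against cortical cells. In the libraries outside the test it stood at 32.3 in the lineage tracing library (4 cells), 34.2 at week 10 after anti-RANKL (5 cells), 5.84 in the week 10 control (8 cells) and 1.80 in the only cell of the week 2 control, all above the *Ccl21a*-high levels of 0.982 to 1.63 in those libraries.

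*Ctsl* encodes cathepsin L, the protease that trims class II ligands in cTECs (chromosome 13, 64359337 to 64370890). Its level was 51.8, 47.8 and 51.9 in double-expressing cells at weeks 2, 4 and 6, against 28.7, 26.4 and 26.6 in *Ccl21a*-high and 40.4, 39.0 and 28.6 in cortical cells. The 3 double-expressing values lay above all 6 others. The difference was 0.89 ± 0.07 (limma adjusted p = 2.11e-08) against *Ccl21a*-high cells and 0.50 ± 0.11 (limma adjusted p = 0.0841) against cortical cells, which did not pass. At week 10 after anti-RANKL the level was 18.7, below both other classes in that library (cortical 37.1, *Ccl21a*-high 21.9). *Krt18*, a simple-epithelium keratin, rose by 0.59 ± 0.10 (limma adjusted p = 0.00135) over *Ccl21a*-high cells, and its partner *Krt8* differed by 0.33 ± 0.13 (limma adjusted p = 0.265).

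The cortical chemokines lay between the classes. *Ccl25*, the CCR9 ligand that attracts thymocyte progenitors, was at 4.35, 5.52 and 1.26 in double-expressing cells, 0.534, 1.02 and 1.11 in *Ccl21a*-high cells and 8.02, 10.1 and 4.02 in cortical cells. At week 6 it was hardly above the *Ccl21a*-high level. It was higher than in *Ccl21a*-high cells by 1.77 ± 0.32 (limma adjusted p = 0.00214), and its difference from cortical cells was -1.11 ± 0.20 (limma adjusted p = 0.0521). *Cxcl12*, the CXCR4 ligand, was at 2.46, 2.41 and 4.37 against 1.51, 1.46 and 1.69 in *Ccl21a*-high and 7.17, 9.12 and 6.45 in cortical cells, with no overlap between the 3 classes. Its differences were 0.89 ± 0.21 (limma adjusted p = 0.0297) and -1.31 ± 0.24 (limma adjusted p = 0.0542). *Ly75*, the DEC-205 endocytic receptor of cTECs, had a level of 0.549 against 0.145 in *Ccl21a*-high and 0.654 in cortical cells and passed neither test, and *Cd83*, which protects class II molecules on cTECs, was too low to be tested in either comparison (0.0368 in double-expressing cells).

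**Figure D3:**
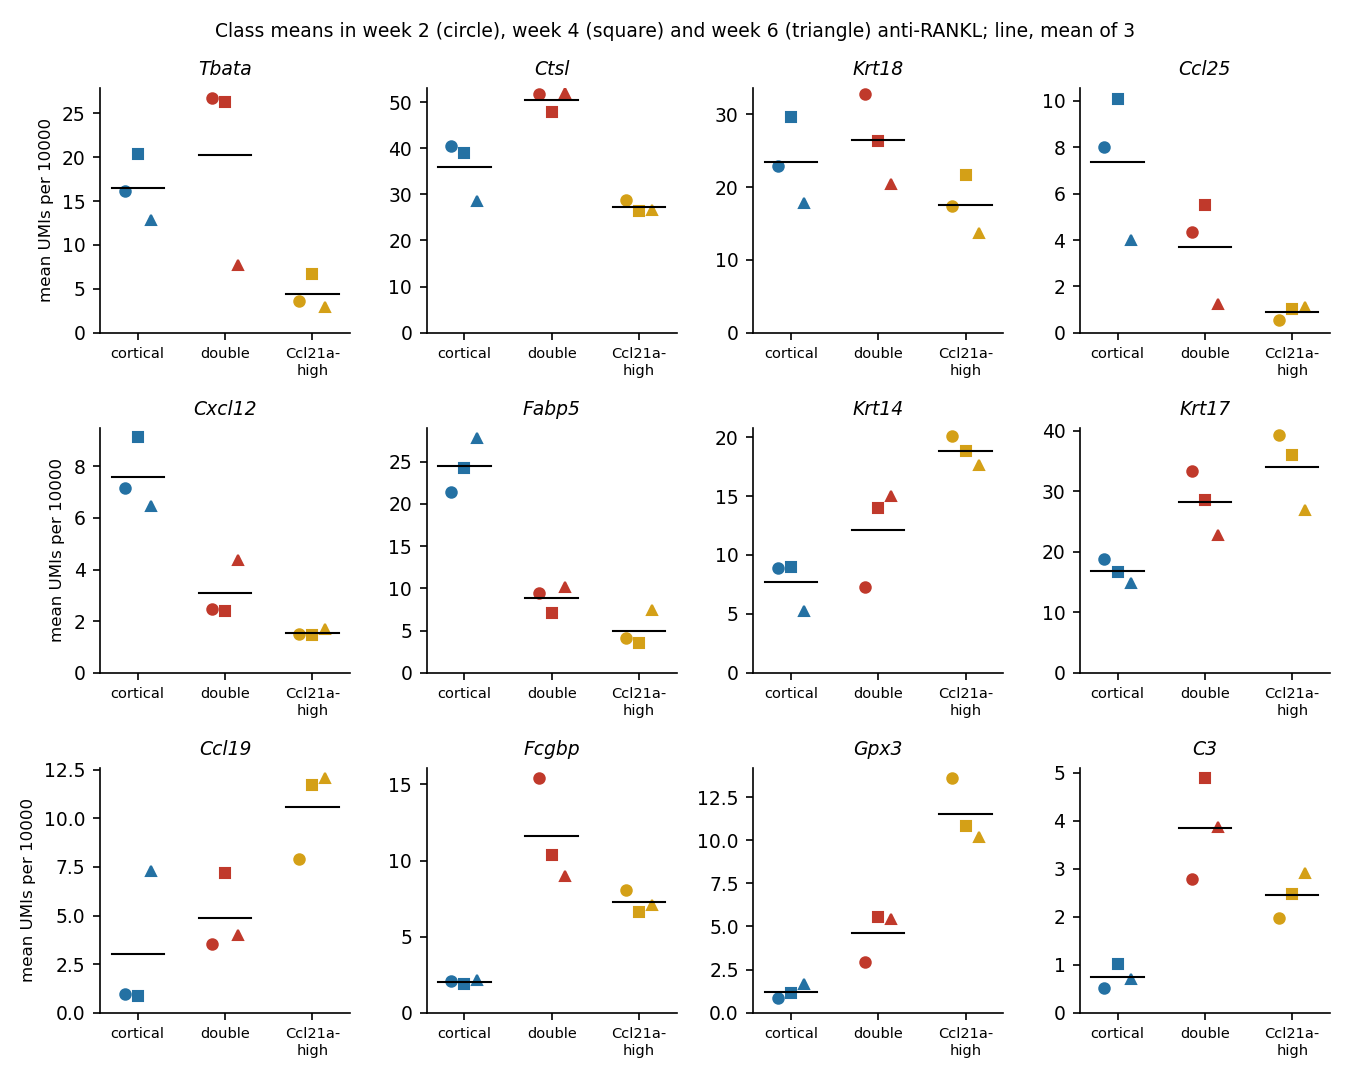
Each panel gives a gene's mean UMIs per 10000 (y axis, from 0) in cortical, double-expressing and *Ccl21a*-high cells (x axis) of the anti-RANKL libraries of week 2 (circles), week 4 (squares) and week 6 (triangles), with a line at the mean of 3 libraries. The double-expressing means of *Tbata*, *Ctsl* and *Krt18* lie above the cortical means. Within libraries, *Tbata* at week 6 and *Krt18* at week 4 lie below the cortical point. The means of *Ccl25*, *Cxcl12* and *Fabp5* lie between the classes, and that of *Krt17* near the *Ccl21a*-high level.

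Detection per cell was compared at 2000 UMIs for every cell. *Tbata* was detected in 53.2% of 79 double-expressing cells (interval 41.6 to 64.5), 52.0% of cortical and 26.6% of *Ccl21a*-high cells. *Cxcl12* was detected in 50.6%, 55.9% and 20.5%, *Ccl25* in 30.4%, 37.5% and 10.1%, and *Ly75* in 13.9%, 13.5% and 2.12%. *Ctsl* was detected in 94.9%, 80.6% and 91.7% and *Krt18* in 94.9%, 88.8% and 91.3%, so that for both the cortical class was lowest in detection though not in level. At least 1 of *Tbata*, *Ccl25* and *Cxcl12* was found in 83.5% of double-expressing cells (interval 73.5 to 90.9), 82.3% of cortical cells (78.9 to 85.3) and 45.4% of *Ccl21a*-high cells (43.3 to 47.4). For reference, *Ptprc*-bearing cells (median depth 10161 UMIs) gave 46.1% (39.5 to 52.8) and *Aire*-positive cells with *Ccl21a* at most 3 (12977.5 UMIs) gave 62.5% (60.5 to 64.4), beside median depths of 5005, 8473 and 6457 UMIs in the double-expressing, cortical and *Ccl21a*-high cells. The share of *Ccl21a*-high cells was thus no higher than that of *Ptprc*-bearing cells. By gene, *Cxcl12* was found in 10.1% of *Ptprc*-bearing (6.503 to 14.8) and 3.50% of *Aire*-positive cells, below the interval of the double-expressing cells (39.1 to 62.1). *Tbata* was found in 37.3% (31.0 to 43.9) and 54.9% and *Ccl25* in 17.5% (12.8 to 23.1) and 24.1%, and for both genes the intervals of the double-expressing cells overlapped those of the *Ptprc*-bearing cells and held the *Aire*-positive shares. Detection of *Tbata* or *Ccl25* alone is therefore not read as apart from these references. The cells of the 3 classes are pooled over libraries of unlike makeup, and the share of *Ccl21a*-high cells differed between libraries. Within the anti-RANKL libraries of weeks 2, 4 and 6, the shares were 83.3%, 84.6% and 82.6% of double-expressing cells against 53.8%, 62.8% and 56.7% of *Ccl21a*-high cells, a smaller gap than in the pooled cells, and the exact intervals of the classes overlapped in each.

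The double-expressing cells varied among themselves. Without thinning, 28 of the 89 carried all 3 of these genes, 27 carried 2, 22 carried 1 and 12 carried none, and 71 carried at least 1 of them together with *Krt14*. The level of *Tbata* per cell ran from 0 to 161 UMIs per 10000, with a median of 3.57 and an upper quartile of 15.6. The cells were also split by *Prss16* UMIs, a value used in the selection. *Tbata* was found in 9 of the 21 cells with 1 *Prss16* UMI, 15 of 22 with 2 and 38 of 46 with 3 or more. *Cxcl12* was found in 6, 12 and 38. Median depth rose along the same groups (2040, 4418 and 6581.5 UMIs). The cells with 1 *Prss16* UMI all came from the week 4 and week 6 anti-RANKL libraries. The parts of depth, library and selection in these counts were not tested. The mean level of *Tbata* was 13.5, 10.8 and 25.2 UMIs per 10000 in these groups, without a steady order.

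Of 13 genes listed for the *Ccl21a*-high medullary program, 12 were tested. In the test against *Ccl21a*-high cells 3 fell, among them *Ccl19* and *Krt14*, and none rose, with a median of -0.36 against 0.01 over all genes, and against cortical cells 1 rose (*Krt17*) and none fell, with a median of 0.44 against -0.05. *Ccl19*, the second CCR7 ligand, was at 3.53, 7.17 and 3.99 in double-expressing cells against 7.92, 11.7 and 12.1 in *Ccl21a*-high cells, lower in every library, and the difference was -1.14 ± 0.15 (limma adjusted p = 7.7e-05). *Krt14*, the basal keratin that pairs with *Krt5*, was at 7.26, 14.03 and 15.0 against 20.1, 18.8 and 17.7, and fell by 0.70 ± 0.15 on the log2 scale (limma adjusted p = 0.00948). *Pdpn*, *Igfbp4* and *Ltbr* stood below both classes in each of the 3 libraries without passing. Their differences from cortical and *Ccl21a*-high cells were -0.65 and -0.56 for *Pdpn*, -0.43 and -0.24 for *Igfbp4*, and -0.32 and -0.29 for *Ltbr*.

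*Krt17*, a keratin of basal and activated epithelium, stayed close to the medullary level. It was at 33.4, 28.5 and 22.7 in double-expressing cells, 39.3, 35.9 and 26.98 in *Ccl21a*-high cells and 18.8, 16.6 and 14.9 in cortical cells, so that the double-expressing cells lay between the classes in each library. It exceeded cortical cells by 0.74 ± 0.10 (limma adjusted p = 0.0125), and its difference from *Ccl21a*-high cells was -0.27 ± 0.08 (limma adjusted p = 0.0814). *Igfbp5*, an insulin-like growth factor binding protein, had a level of 10.3 against 8.02 in *Ccl21a*-high and 6.09 in cortical cells and passed neither test. *Trp63*, the transcription factor of basal epithelium, was at 2.59, 1.83 and 2.61 in the 3 classes and passed neither.

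Outside the lists, 3 of 5533 genes were called in both comparisons, 1 in each of 3 patterns (0.0181% each). *Fcgbp*, a mucus-associated IgG Fc binding protein (chromosome 7, 28071236 to 28120862), was higher than in both classes. Its level was 15.4, 10.4 and 8.96 in double-expressing cells, 2.08, 1.88 and 2.13 in cortical and 8.06, 6.65 and 7.05 in *Ccl21a*-high cells. The differences were 2.42 ± 0.19 (limma adjusted p = 0.000582) and 0.64 ± 0.13 (limma adjusted p = 0.00801). The excess over *Ccl21a*-high cells did not extend to the other libraries: in the isotype controls *Fcgbp* was at 3.59 and 5.07 against 14.2 and 10.5, and at week 10 after anti-RANKL at 9.58 against 20.5, and the difference turned to -0.04 when libraries with at least 5 cells were used. *Gpx3*, a secreted glutathione peroxidase, lay between the classes, at 2.92, 5.54 and 5.44 against 13.6, 10.8 and 10.2 in *Ccl21a*-high and 0.867, 1.16 and 1.65 in cortical cells. *Fabp5*, a fatty acid binding protein, also lay between them, at 9.42, 7.08 and 10.2 against 21.4, 24.3 and 27.8 in cortical and 4.10, 3.48 and 7.38 in *Ccl21a*-high cells, with differences of -1.46 ± 0.13 (limma adjusted p = 0.00101) and 0.88 ± 0.15 (limma adjusted p = 0.00115). No gene of the 5533 was called lower than both classes by limma.

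**Figure D4:**
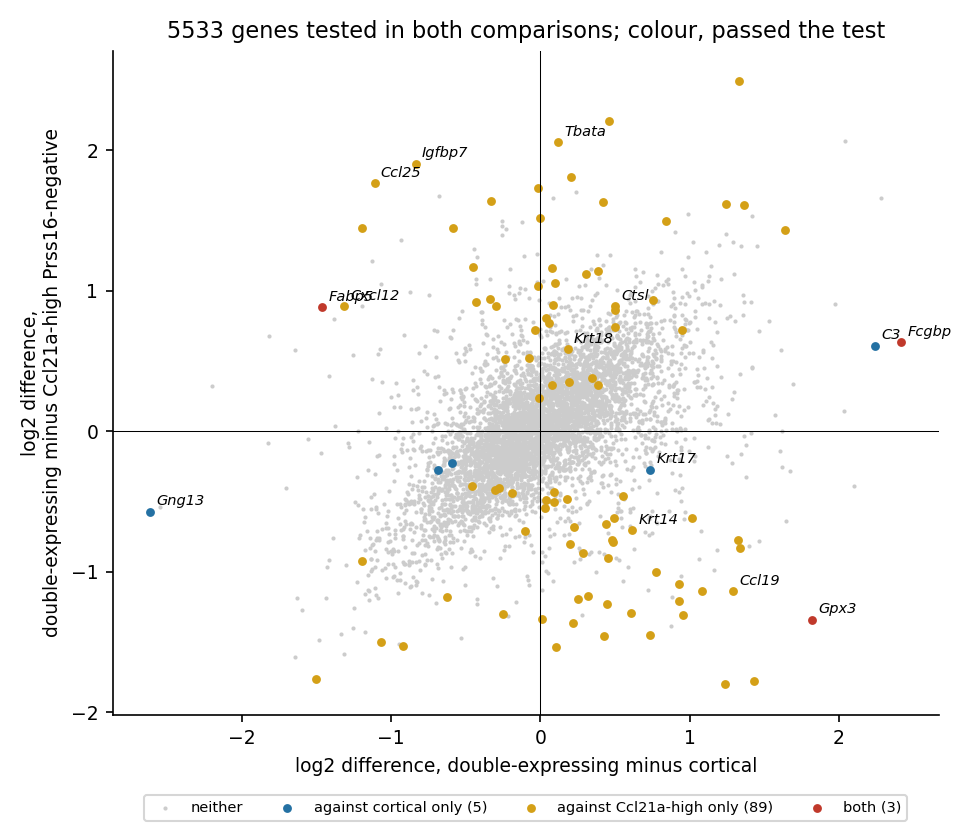
Each point is 1 of 5533 genes tested in both comparisons; the x axis is the log2 difference of double-expressing minus cortical cells and the y axis that of double-expressing minus *Ccl21a*-high cells, with genes that passed the limma test in colour. *Tbata* and *Ctsl* lie high on the y axis near or right of 0 on the x axis, *Ccl25*, *Cxcl12* and *Fabp5* in the upper left, *Krt14*, *Ccl19* and *Gpx3* in the lower right, and *Fcgbp* in the upper right; both axes use the same double-expressing values.

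The remaining calls against cortical cells were few. *C3*, the central complement component, was higher by 2.24 ± 0.23 (limma adjusted p = 0.00252), at 2.79, 4.89 and 3.88 against 0.507, 1.02 and 0.70, with no overlap. That excess was absent from the lineage tracing library (2.302 against 2.358) and the week 10 control (1.285 against 1.48). *Gng13*, a G protein subunit of taste and tuft cells, fell by 2.61 ± 0.30 on the log2 scale (limma adjusted p = 0.00555), from 1.99 to 0.230, and the tuft list of the cortical class moved in the same direction (above). *Serpinf1*, a secreted serpin of stromal cells, fell by 2.83 ± 0.43 (limma adjusted p = 0.0327). Beside it, the fibroblast and endothelial list had a median of 7.59 in cortical and 1.56 in double-expressing cells. The ribosomal gene *Rplp1* fell by 0.59 ± 0.08 (limma adjusted p = 0.0111). *Gm10073*, which also fell, is annotated by RefSeq as a pseudogene, so its reads are uncertain.

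Against *Ccl21a*-high cells, the genes with the largest rises beyond the cortical list were *Thrsp*, a lipogenic gene (2.49 ± 0.46, limma adjusted p = 0.00263), *Igfbp7*, an insulin-like growth factor binding protein (1.91 ± 0.34, limma adjusted p = 0.00179), *Fxyd2*, a sodium pump regulator (1.81 ± 0.25, limma adjusted p = 0.000121), *Crip3*, a thymus LIM protein (1.64 ± 0.27, limma adjusted p = 0.000606), and *Hebp1*, *Mt1*, *Ifi27* and *Mreg*, with differences from 1.14 to 1.63. *Igfbp7* was at 0.331, 2.47 and 3.75 against 0.1745, 0.323 and 0.600, with most of its rise at weeks 4 and 6. *Thrsp* was at 1.10, 2.24 and 0.254 in the tested libraries but at 0 in double-expressing cells of the other 4 libraries, where *Ccl21a*-high cells had 0.0446 to 0.229. The largest falls were in *CR974586.5*, *Cxcl14*, *Ly6h*, *Stmn1*, *Acta2*, *Gm2564*, *Gpx3*, *Mapk13*, *Lypd1* and *Lgals1*, from -1.80 to -1.30. *Acta2* encodes smooth muscle actin and *Lgals1* galectin-1. *CR974586.5* lies on a contig that also carries a copy of *Ccl21b*, and *Gm2564*, a transcribed pseudogene in RefSeq, lies on chromosome 4 at 42629719 to 42631714, upstream in coordinate of *Ccl19* and *Ccl21a*, so reads of either may be shared with the selection gene or with *Ccl19*.

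Of 10 genes of MHC class I and II presentation, all tested, 2 rose against *Ccl21a*-high cells and none passed against cortical cells. *H2-Ab1*, a class II chain, rose by 0.35 ± 0.06 (limma adjusted p = 0.00179) and *Cd74*, the invariant chain, by 0.23 ± 0.05 (limma adjusted p = 0.00455). Of 12 proteasome and cathepsin genes, 3 rose against *Ccl21a*-high cells, *Ctsl* and the immunoproteasome subunits *Psmb9* (0.80 ± 0.19, limma adjusted p = 0.0315) and *Psmb10* (0.72 ± 0.18, limma adjusted p = 0.0393), and none passed against cortical cells. *Psmb8*, the other listed immunoproteasome subunit, did not pass against *Ccl21a*-high cells (0.12 ± 0.21, limma adjusted p = 0.911), at a mean level of 2.26 against 2.05. The constitutive subunits *Psmb5*, *Psmb6* and *Psmb7* passed in neither comparison.

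Among 10 TEC identity transcription factors, 8 were tested, and *Pax1*, which patterns the thymus primordium, was the only gene to pass. It was higher than in *Ccl21a*-high cells by 0.89 ± 0.22 (limma adjusted p = 0.0393), at 2.55, 1.97 and 2.40 against 1.29, 1.12 and 1.17, and did not pass against cortical cells (-0.30 ± 0.23, limma adjusted p = 0.725). *Foxn1*, the master regulator of TECs, had levels of 0.755, 0.514 and 0.586 in double-expressing, *Ccl21a*-high and cortical cells and passed neither test. Of 10 surface and keratin genes used to mark TEC progenitors, *Ly6a*, which encodes Sca-1, fell against *Ccl21a*-high cells (-0.92 ± 0.21, limma adjusted p = 0.0227), lower in 2 of the 3 libraries, and stood at -1.19 ± 0.23 against cortical cells (limma adjusted p = 0.0585). *Plet1* and *Cldn3* were too low to be tested, as was *Cldn4* against *Ccl21a*-high cells, and none of the other tests passed.

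Of 13 Wnt and BMP genes, 7 were tested. *Id2*, an inhibitor of bHLH factors and target of BMP signals, fell against *Ccl21a*-high cells by 0.80 ± 0.19 on the log2 scale (limma adjusted p = 0.0273), and *Sfrp1*, a secreted Wnt antagonist, was 1.58 ± 0.26 above cortical cells (limma adjusted p = 0.0521). Of 12 cytokines and chemokines directed at thymocytes, *Cxcl10*, a CXCR3 ligand, fell against *Ccl21a*-high cells by 0.77 ± 0.17 (limma adjusted p = 0.0113), with *Ccl19* falling and *Ccl25* and *Cxcl12* rising as above. *Il7*, the thymocyte survival cytokine, had levels of 2.96, 2.26 and 1.89 in double-expressing, *Ccl21a*-high and cortical cells and passed neither test. Of 12 basement membrane and adhesion genes, 10 were tested against cortical and 9 against *Ccl21a*-high cells, and none passed.

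Of 11 *Aire* branch genes, *Cd52*, a small glycoprotein, passed against *Ccl21a*-high cells (1.73 ± 0.42, limma adjusted p = 0.0315), higher in 2 of 3 libraries, and turned to -0.44 with *Ccl21a* above 4 required. *Aire* was at 0.964 against 0.255 in *Ccl21a*-high and 0.909 in cortical cells and passed neither test. Of the proliferation genes, *Mki67* was found in 4 of 89 double-expressing cells (4.49%) and *Top2a* in 3 (3.37%), against 5.85% and 3.69% of *Ccl21a*-high and 7.78% and 7.95% of cortical cells, without correction for depth, and only *Pcna* of 10 cell cycle genes could be tested, without passing. Of 11 immediate early and heat shock genes, which respond to dissociation, 10 were higher than in cortical cells in all 3 libraries, though none passed, with a median of 0.75. Over all 5901 genes, 875 were higher in all 3 libraries and the median was -0.05. Against *Ccl21a*-high cells *Fos*, *Jun* and *Atf3* fell, with a list median of -0.06.

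The place of double-expressing cells between the comparison classes was measured over genes with at least a 4-fold difference between those classes and a level of at least 1 in the higher class, from unweighted means of all 7 libraries. Libraries with 1, 4, 5 and 8 double-expressing cells thus counted as much as the others. Position 0 is the *Ccl21a*-high and 1 the cortical level. The genes and both end points come from the same class means, so the positions are a description and not a test. For 30 genes higher in *Ccl21a*-high cells the median position was 0.564 (quartiles 0.435 and 0.644). For 31 genes higher in cortical cells the median was 0.191 (quartiles -0.0127 and 0.363), and 9 lay below 0. These 31 genes were chosen by level and include *Aire*, *Gng13* and *Lyz2*, so this median is not that of the cortical program. *Tbata* stood apart at 0.948. Other genes named above included *Igfbp7* at 0.531, *Crip3* at 0.478, *Cxcl12* at 0.337 and *Ccl25* at 0.280. Some genes not named here also lay above *Crip3*. The 9 genes below 0 were *Cdx1*, *Csn2*, *Fam89a*, *Gng13*, *Lyz2*, *Reg3g*, *S100a8*, *Saa3* and *Spink1*. Beside *Lyz2*, the myeloid and B cell list had a median of 1.53 in cortical and 0.118 in double-expressing cells. Beside *Gng13*, the tuft list had 1.75 and 0.358. The part of such transcripts in the positions was not tested. Leaving out 1 library moved the median position of genes higher in cortical cells. It was 0.0767 without week 2 of anti-RANKL, 0.115 without week 4 and 0.12 without lineage tracing, with 0.237 as the highest (without the week 10 control). With cortical cells required to carry *Psmb11* it was 0.0956. In the 3 libraries used for tests the median was 0.582 over 22 genes higher in *Ccl21a*-high cells. Over 22 genes higher in cortical cells it was 0.311, and 2 of these lay below 0.

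**Figure D5:**
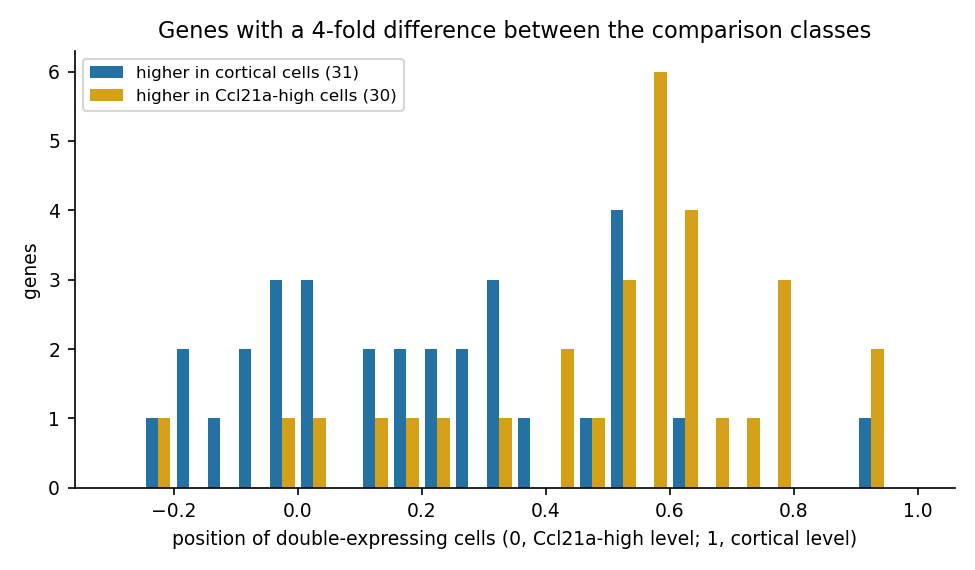
The x axis is the position of double-expressing cells, with 0 at the *Ccl21a*-high and 1 at the cortical level, and the y axis counts genes with a 4-fold difference between these classes, 31 higher in cortical (blue) and 30 higher in *Ccl21a*-high cells (yellow). Genes of the *Ccl21a*-high class centre on 0.564, genes of the cortical class spread from below 0 to about 0.63, and *Tbata* is the only cortical gene above that, at 0.948.

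In the lineage tracing library, 3 of 4 double-expressing cells carried a ZsGreen UMI (75%, exact interval 19.4 to 99.4), against 33 of 67 cortical cells (49.3%, 36.8 to 61.8) and 209 of 622 *Ccl21a*-high cells (33.6%, 29.9 to 37.5). At 2000 UMIs per cell it was found in 0 of the 4, in 16.4% of cortical cells and in 11.1% of *Ccl21a*-high cells. *Ptprc*-bearing cells carried it in 44 of 69 cases (63.8%) and in 31.9% after thinning, above both TEC classes, so no level free of the label was available in this library. The labelling of these cells could not be read from 4 cells.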

How the data were processed

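The authors sequenced the 7 libraries, aligned them with Cell Ranger 2.2.0 to mm10 (ZsGreen added for the tracing library) and filtered them in Seurat 2.3.4; no doublet step is named. Each deposited value is a natural log (1 plus UMIs per 10000 of the cell), and whole UMIs were recovered in all 8453 cells (tolerance 0.001). They are not counts as deposited, so limma 3.58.1 under R 4.3.3 was used, 2-sided, with a trend, and Benjamini-Hochberg adjustment. Libraries needed 10 cells per class and genes a mean of 0.2 UMIs per 10000. Replicates are pools of 3 thymi, so p-values measure the spread between libraries, which also differ in week. The conditions, members and lists were chosen with earlier results of these data known. Named genes are those of the conditions and of 17 lists, and per comparison up to 10 called genes per direction with the largest difference, a level of at least 1 and 1 direction in every library, and genes called in both. The position genes named below 0 were picked once their values were known. *Gm21541*, *Gm13304* and *Gm10591*, copies of *Ccl21* by their RefSeq synonyms, were found and left out after a first fit. The planned test of anti-RANKL against isotype cells was not run, since the controls hold 1 and 8 double-expressing cells. On simulated data for the cortical comparison (5438 genes), 48% of 2-fold and 100% of 4-fold rises were called; for the *Ccl21a*-high comparison (5251 genes), 50% and 100%. Falls were recovered less often, 38% of 2-fold and 91.8% of 4-fold in the former and 36.7% and 92% in the latter, and 3 and 0 unchanged genes were called. Doublets were marked with scrublet in scanpy 1.11.5 under Python 3.11.15. Thinning drew 2000 UMIs per cell without replacement. Intervals cover counting error only. Some listed genes are not reported here.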

Additional observations from a re-analysis of the deposited data

Results flagged for a closer look

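The level of *Ctsl* in double-expressing cells at week 10 after anti-RANKL, 18.7 UMIs per 10000 over 5 cells, lay far from the other 3 anti-RANKL libraries, which ran from 47.8 to 51.9. The gap was 0.878 of the whole range, above Dixon's 95% critical value for 4 samples. It was 1 of 16 quantities tested this way, and chance flags about 1 in 20. That library did not enter the tests, which needed at least 10 cells. The level was 90.1 in the lineage tracing library (4 cells) and 91.7 and 31.0 in the isotype controls (1 and 8 cells).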

How the results depend on the processing

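Counts of genes called by limma against cortical cells (4 higher, 6 lower) were 16 and 16 with a pseudocount of 0.5, 4 and 4 with 0.02, 4 and 3 with a filter of 0.5 UMIs per 10000, 14 and 11 with no filter, 3 and 2 with summed UMIs, 8 and 7 with mean natural logs, 35 and 31 with at least 5 cells (5 libraries), 11 and 6 with at least 20, 4 and 3 with weights by cell number, 12 and 13 without marked doublets, 10 and 16 after thinning, and 17 and 17 with *Ccl21a* above 4. Leaving out 1 library gave 11 to 97 higher and 6 to 82 lower. Against *Ccl21a*-high cells (45 and 49) they were 55 and 51, 28 and 29, 24 and 22, 0 and 0 with no filter (unadjusted 348 and 1745), 21 and 28, 44 and 86, 27 and 32, 4 and 1, 43 and 44, 42 and 45, 10 and 14, and 34 and 33 in the same order, and 4 to 61 higher and 1 to 49 lower with 1 library left out. Without the replicate block, which pairs the classes within a library, the counts were 1 and 1 against cortical cells and 0 and 0 against *Ccl21a*-high cells (unadjusted 253 and 188). No paired analysis was possible because the isotype libraries hold 1 and 8 double-expressing cells, for anti-RANKL against isotype, which was not run under any setting.

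Alternatives chosen after seeing the data gave 8 and 10 against cortical and 17 and 24 against *Ccl21a*-high cells with at least 2 *Prss16* UMIs, 4 and 3 with cortical cells required to carry *Psmb11*, and 11 and 10, and 44 and 47, with 3 more copies of *Ccl21* tested. The isotype mean share (0.365%) was 1.07% and 0.0802% with *Prss16* above 1 and above 2, 1.38% with no limit on *Ackr4* and *Psmb11* and 1.44% after thinning, and ran from 0.0886% to 0.642% with 1 control left out. The week 6 anti-RANKL share (4.03%) was 8.90% and 1.67% with *Prss16* above 1 and above 2, 7.65% with no limit on *Ackr4* and *Psmb11*, 8.57% after thinning and 2.50% with at least 2 *Prss16* UMIs. The ZsGreen share of double-expressing cells (75%) was 0% after thinning. Over the named and listed genes, 4025 alternative values stayed on their side of the threshold, among them uncalled values of either sign, 338 fell short of it, 103 newly passed it and 3 turned: *Ubd* against cortical cells from -0.01 to 0.78 without week 6 (-0.54 to 0.78 with 1 library left out), *Fcgbp* against *Ccl21a*-high cells to -0.043 with at least 5 cells, and *Cd52* to -0.44 with *Ccl21a* above 4. *Tbata*, *Ctsl* and *Igfbp7* lost their call against *Ccl21a*-high cells only with no filter or no block, of 18 alternatives. The cause of these changes was not tested. Depth limited the selection, since 21 and 22 of the 89 cells rest on 1 and 2 *Prss16* UMIs.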
